A study of Mus musculus with 20 samples.

Results

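Rfesd, Cd44 and Pcmtd1 are 3 mouse genes of the 55471 listed in the deposited tables, and they were chosen because the transcripts upstream of their promoters, called PROMPTs, were far more abundant in Zcchc8 knockout cells than in wild type. Each has a row for the gene and a row for its PROMPT region, so the question was whether the gene counts followed the PROMPT counts library by library. Total RNA was sequenced from SIMS, a mouse salivary gland ductal cell line, grown in the same medium in all groups. The groups were unedited wild type, Btbd7 KO (a CRISPR/Cas9 knockout that the series names as its negative control), and 3 Zcchc8 KO clones made with CRISPR/Cas9, each with 4 libraries. Each Zcchc8 KO group is 1 clone, and the labels name no clone for Btbd7 KO. The labels do not say that libraries came from separate cultures, so p-values measure the spread between these libraries, which may be technical.

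PROMPTs are short-lived RNAs made upstream of active promoters, mostly in the direction opposite to the gene. ZCCHC8 is the scaffold of the nuclear exosome targeting complex (NEXT), which joins the helicase MTR4 to the RNA-binding protein RBM7 and hands such RNAs to the nuclear exosome for degradation. Rfesd encodes a protein with a Rieske iron-sulfur domain. Cd44 encodes a cell-surface receptor for hyaluronan. Pcmtd1 encodes a relative of the isoaspartyl methyltransferase Pcmt1 that carries a SOCS box, the motif that recruits elongins and cullin 5.

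In GENCODE M21 coordinates on GRCm38, Rfesd lies on the minus strand of chr13:76001535-76018719, Cd44 on the minus strand of chr2:102811141-102901665, and Pcmtd1 on the plus strand of chr1:7088920-7173628. All 3 are protein-coding. The extent of a PROMPT region and the strand on which it was counted are not given in the sources used here. The 250 bases upstream of the RefSeq start are shown for Rfesd and Cd44 because PROMPTs are made upstream of promoters, read on the gene's strand from RefSeq (build GRCm38.p6), with CpG dinucleotides in capitals. For Rfesd, the window of the more upstream of 2 annotated starts is shown (chr13:76018607-76018856), and for Cd44 the single window (chr2:102901666-102901915). The GENCODE span of Rfesd reaches into its window, so the later part of that stretch lies inside the annotated gene, whereas the Cd44 stretch lies directly upstream of the GENCODE span.
Rfesd: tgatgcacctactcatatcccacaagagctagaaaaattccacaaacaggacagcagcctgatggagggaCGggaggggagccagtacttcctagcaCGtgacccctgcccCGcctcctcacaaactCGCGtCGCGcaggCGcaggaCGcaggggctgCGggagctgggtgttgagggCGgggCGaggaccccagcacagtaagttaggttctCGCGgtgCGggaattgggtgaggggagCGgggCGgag
Cd44: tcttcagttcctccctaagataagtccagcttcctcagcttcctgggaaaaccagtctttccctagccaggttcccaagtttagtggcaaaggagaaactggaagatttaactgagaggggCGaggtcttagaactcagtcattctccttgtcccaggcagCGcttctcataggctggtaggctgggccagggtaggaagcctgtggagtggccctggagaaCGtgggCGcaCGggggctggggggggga
The 2 windows differ in CpG content. The Rfesd stretch holds 17 CpG and the Cd44 stretch 5, beside a median of 6 over the upstream stretches of all 32851 RefSeq windows. The polyadenylation hexamers AATAAA and ATTAAA, the 5' splice site sequence GGTAAG and the TATA sequence TATAAA were searched on both strands of the 300-base windows, which also take in the 50 bases after the start. None of these exact sequences occurs in the windows of Rfesd or Cd44. Other forms of a 5' splice site were not searched. The Rfesd stretch above holds AGTAAG, which differs from GGTAAG in the first letter. Over all windows, 19.6% hold AATAAA on either strand, 13.9% ATTAAA, 9.67% GGTAAG and 13.6% TATAAA.

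Library totals ran from 6833258 to 17771804 counts in the gene table and from 1569548 to 3966608 in the PROMPT table. Gene totals were 6833258 to 7683444 in clone 1 and 13876944 to 17771804 in wild type, and the other groups spanned wider ranges. Wild-type replicate 1 was not in the PROMPT table, so PROMPT values rest on 3 wild-type libraries. That library also stood apart in the gene table, with 14245 genes detected against 17442 to 20889 in the other 19. Ductal epithelial markers (Krt7, Krt8, Krt18, Krt19, Epcam, Cdh1 and Cldn4, 7 of 7 tested) summed to 3417 to 5048 CPM (counts scaled to a common library size) in wild type and 3105 to 3975 CPM in the Zcchc8 KO clones, while endothelial markers summed to at most 1.02 CPM in any library. Fibroblast markers (Col1a1, Col3a1, Pdgfra and Thy1, 2 of 4 tested) summed to 10.7 to 17.7 CPM in wild type, 20.1 to 32.5 in Btbd7 KO, and 9.34 to 12.2, 23.5 to 26.7 and 21.2 to 25.4 CPM in clones 1 to 3. Most of that sum was Col1a1 (8.65 to 26.6 CPM), and Thy1 was at 0 in all. Immune markers (Ptprc and Cd68, 1 of 2 tested) summed to 4.52 to 6.19 CPM in wild type, 5.44 to 6.59 in Btbd7 KO, and 8.07 to 13.0, 9.26 to 11.01 and 4.09 to 6.63 CPM in clones 1 to 3, most of it Cd68. Basal markers (1 of 4 tested), nearly all of it Krt14, summed to 252 to 395 CPM in wild type, 400 to 420 in Btbd7 KO and 161 to 326 CPM in the clones. Acinar markers (Aqp5, Bhlha15 and Amy1, 2 of 3 tested), nearly all of it Aqp5, summed to 167 to 188 CPM in wild type and 109 to 115 in Btbd7 KO. In clones 1 to 3 they summed to 136 to 164, 126.5 to 155 and 115 to 124 CPM. The part of these differences in the results was not tested, and in bulk RNA fewer cells of a type and less RNA per cell cannot be told apart. The gene row of Zcchc8 itself averaged 65.1 ± 2.92 CPM in wild type and 62.3 ± 3.76 in Btbd7 KO, and 60.3 ± 4.29, 23.3 ± 1.35 and 54.55 ± 4.84 in clones 1 to 3 (SD, 4 libraries per group). In clone 1 its libraries (55.15 to 65.6 CPM) overlapped those of wild type (61.6 to 68.1 CPM) and it was not called lower (-0.11, edgeR adjusted p = 0.291), so it does not check the label there. Btbd7 averaged 202 ± 7.64 CPM in wild type and 99.2 ± 3.23 CPM in Btbd7 KO.

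The PROMPT rows were nearly empty in the control cells and filled in all 12 Zcchc8 KO libraries. These values chose the genes and are given as a description. For gene and PROMPT rows alike, CPM was taken over the library's gene total after TMM scaling, a factor that corrects for composition.

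The Rfesd PROMPT had 4, 3 and 0 counts in wild-type replicates 2 to 4, and 5, 1, 0 and 9 in Btbd7 KO. In Zcchc8 KO it had 90, 98, 54 and 58 counts in clone 1, 56, 113, 153 and 207 in clone 2, and 131, 52, 62 and 174 in clone 3. Every knockout library was above every control library, and the 3 clones overlapped each other. In CPM the means were 0.152 ± 0.132 (SD, n = 3) in wild type, 0.282 ± 0.344 in Btbd7 KO, and 10.05 ± 2.90, 9.69 ± 3.11 and 8.90 ± 2.28 in clones 1 to 3 (SD over 4 libraries). Summed over libraries, 1248 counts in Zcchc8 KO stood against 7 in wild type, a ratio of 66.6 per scaled library total (exact 95% binomial interval 32.2 to 166, counting error only).

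The Cd44 PROMPT had no count in 2 of the 3 wild-type libraries and was highest in clone 1. It had 0, 0 and 7 counts in wild-type replicates 2 to 4, and 8, 1, 4 and 8 in Btbd7 KO. The clones had 99, 116, 102 and 110 counts in clone 1, 68, 119, 130 and 111 in clone 2, and 91, 28, 40 and 151 in clone 3. In CPM these were means of 0.137 ± 0.237 (SD, n = 3) in wild type, 0.430 ± 0.258 in Btbd7 KO, and 14.35 ± 1.19, 8.22 ± 0.862 and 6.345 ± 2.895 in clones 1 to 3 (SD over 4 libraries). All 4 libraries of clone 1 (12.9 to 15.7 CPM) lay above all of the other clones, whereas clone 3 (3.515 to 10.3 CPM) spanned the range of clone 2 (7.415 to 9.32 CPM). The summed counts were 1165 in Zcchc8 KO against 7 in wild type, all 7 of them in wild-type replicate 4, a ratio of 62.2 (exact 95% binomial interval 30.1 to 155).

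The Pcmtd1 PROMPT was the least abundant of the 3. It had 2, 3 and 0 counts in wild-type replicates 2 to 4, and 4, 1, 0 and 0 in Btbd7 KO. In the clones it had 24, 23, 15 and 26 counts (clone 1), 11, 45, 37 and 42 (clone 2), and 34, 14, 17 and 36 (clone 3). The mean was 0.113 ± 0.112 CPM (SD, n = 3) in wild type and 0.0769 ± 0.114 CPM in Btbd7 KO, against 2.93 ± 0.514, 2.43 ± 0.770 and 2.20 ± 0.321 CPM in clones 1 to 3 (SD, n = 4 each). No knockout library overlapped a control library, and the clones overlapped each other. The summed counts of 324 against 5 gave a ratio of 24.2 (exact 95% binomial interval 10.3 to 75.1). A count of 0 in these libraries allows up to 3 counts, which was 0.176 CPM in wild-type replicate 4 and 0.372 CPM in Btbd7 KO replicate 3.

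**Figure D1:**
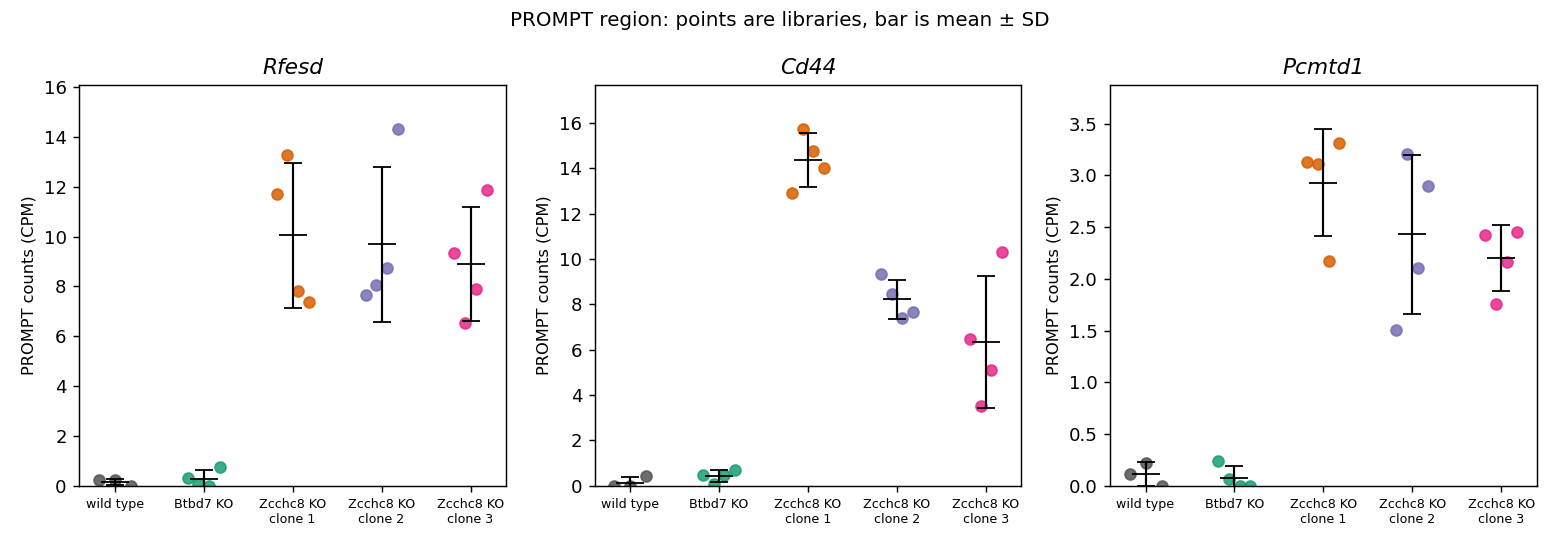
PROMPT CPM (vertical axes, starting at 0 and scaled per gene) of Rfesd, Cd44 and Pcmtd1 in 3 wild-type libraries and 4 libraries of each other group. Points are libraries and bars are mean ± SD. All 12 Zcchc8 KO libraries lie above all control libraries for each gene, and clone 1 is highest for Cd44.

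On the fitted log2 scale (edgeR) the PROMPT difference between the mean of the 3 clones and wild type was 5.93 (SE 0.42) for Rfesd, 5.87 (SE 0.42) for Cd44 and 4.44 (SE 0.58) for Pcmtd1. The rule behind the choice took regions called higher in the mean and in each clone, not called in Btbd7 KO and averaging 50 counts or more, and 1409 regions met it. Rfesd ranked first and Cd44 second among them, followed just outside by Ubqln2 at 5.60 and Pgam1 at 5.45. Pcmtd1 had a mean of 17.6 counts and did not meet the minimum, and over all 17617 regions tested its rise ranked 569th, beside 180th for Rfesd and 197th for Cd44. "Strongest rise" therefore holds for Rfesd and Cd44 only under the count minimum and does not hold for Pcmtd1. Regions with larger fitted rises had few counts, such as Pin4 at 7.62 with a mean of 13.7. In the same comparison 39.2% of all tested PROMPT regions were called higher and 3.85% lower, with a median of 0.43.

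The gene rows gave 1 riser among the 3 members. Rfesd gene counts were about 1.91 times the wild-type level in Zcchc8 KO, while the gene counts of Cd44 and Pcmtd1 were not called different from wild type. Gene and PROMPT rows come from the same libraries, and all comparisons with wild type share those 4 wild-type libraries. Differences of gene rows are given on the log2 scale. Without wild-type replicate 1 the differences were 0.870 for Rfesd, 0.095 for Cd44 and 0.040 for Pcmtd1 (edgeR adjusted p = 4.56e-08, 0.0613 and 0.675).

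Rfesd, a gene of middling abundance in these cells (42.8th percentile of wild-type CPM per kb of exon among 15276 tested genes with a length), was measured at 11.1, 13.2, 13.1 and 16.5 CPM in wild type and 13.4, 12.8, 13.2 and 10.8 CPM in Btbd7 KO. It was measured at 20.4, 27.6, 25.2 and 26.4 CPM in clone 1, at 31.4, 26.1, 24.0 and 24.8 CPM in clone 2, and at 24.1, 23.1, 28.3 and 28.7 CPM in clone 3. All 12 knockout libraries were above all 8 control libraries, and wild type and Btbd7 KO overlapped. The log2 difference from wild type was 0.93 (SE 0.11, 95% interval 0.71 to 1.16), with an adjusted p of 3.80e-07 (edgeR's quasi-likelihood test with Benjamini-Hochberg adjustment over 15297 genes), in a comparison where 16.2% of genes were called higher and 19.9% lower. Those shares are 2474 and 3046 genes, and without TMM they were 3229 and 2005, with DESeq2 3176 and 2517. Each clone alone gave a like value, 0.88, 0.97 and 0.95 for clones 1 to 3 (edgeR adjusted p = 1.16e-05, 2.62e-06 and 4.60e-06), where 16.7%, 16.1% and 14% of genes were called higher.

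Btbd7 KO differed from wild type by -0.10 (95% interval -0.38 to 0.17, edgeR adjusted p = 0.671), in a comparison that called 7.73% of genes higher and 8% lower. Against Btbd7 KO the 3 clones were higher by 1.04 (SE 0.11, edgeR adjusted p = 6.25e-08, 18.8% of genes called higher and 22.2% lower). The clones were not called different from one another (edgeR adjusted p = 0.888, 28.5% of genes called). With the libraries summed per cell line, the 3 clones were set against 2 control lines, wild type and Btbd7 KO. Rfesd was still called in that fit (0.945, edgeR adjusted p = 0.0072).

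In group means, the rise of the Rfesd gene row was close in size to the rise of its PROMPT row. Gene counts rose from a mean of 13.5 to 25.8 CPM, which is 12.4 CPM, and the PROMPT row rose by 9.395 CPM. Without wild-type replicate 1, which has no PROMPT value, the gene rise was 11.6 CPM. Within clones the 2 rows did not always move together. In clone 2, replicate 1 had the lowest PROMPT value (7.675 CPM) and the highest gene value (31.4 CPM). In clone 1, replicate 1 had the lowest gene value (20.45 CPM) at a PROMPT value of 11.7 CPM, while replicate 2 was highest in both rows. In clone 3, replicate 4 was highest and replicate 2 lowest in both. Every PROMPT count was also taken off the gene count of the same library, an alternative chosen after seeing the data. It treats all PROMPT reads as if they were also in the gene row, and covers the 19 libraries with both rows. The Rfesd difference was then 0.20 (SE 0.20, edgeR adjusted p = 0.466) against wild type, beside 0.870 in those libraries before. Against Btbd7 KO it was 0.40 (SE 0.18, edgeR adjusted p = 0.073), beside 1.046 before. Rfesd was chosen for its PROMPT rise, so this step lowers its difference by construction and cannot show whether reads are shared. Under that treatment the clones gave 0.07, 0.24 and 0.27, and the call was lost in each. Whether the 2 rows share reads is not given in the sources used here, so counts of Rfesd mRNA and of its upstream transcript cannot be told apart in this row.

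Cd44, which is among the most abundant genes of these cells (99.0th percentile of wild-type CPM per kb of exon), was at 1079, 1061, 1027 and 1036 CPM in wild type and 1100, 1082, 1118 and 1095 CPM in Btbd7 KO. The clones gave 1116, 1140, 1062 and 1015 CPM (clone 1), 1066, 1077, 1092 and 1145 CPM (clone 2), and 1040, 1083, 1150 and 1188 CPM (clone 3). Of the 12 Zcchc8 KO libraries, 7 lay above the highest wild-type library, 4 within the wild-type range and 1 below it. All 4 Btbd7 KO libraries also lay above the highest wild-type library, and 4 of the 12 lay above every control library. The log2 difference from wild type was 0.06 (SE 0.04, 95% interval -0.02 to 0.14, edgeR adjusted p = 0.226), which bounds a change of the gene row at 0.988 to 1.105 times wild type.

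The order of the clones by Cd44 PROMPT was not repeated in the gene row. Clone 1, with the highest PROMPT values, had the lowest mean of the clones in the gene row (1083 ± 56.0 CPM), followed by clone 2 (1095 ± 35.0 CPM) and clone 3 (1115 ± 66.3 CPM; SD, n = 4 each), and these were not called different (edgeR adjusted p = 0.811). The PROMPT means of the clones, 6.345 to 14.35 CPM, are below these SDs. The order therefore cannot show whether the gene row gained as many counts as its PROMPT. On a fold scale the gene row did not follow it. The clones' gene means stayed at 1083 to 1115 CPM while their PROMPT means ran from 6.345 to 14.35 CPM. The single-clone differences from wild type were 0.04, 0.06 and 0.09, and that of Btbd7 KO was 0.06 (edgeR adjusted p = 0.521, 0.375, 0.192 and 0.405). Against Btbd7 KO the clones differed by less than 0.01 (95% interval -0.08 to 0.08, edgeR adjusted p = 0.986). Other scalings moved the Cd44 value past the threshold: 0.095 with DESeq2 (adjusted p = 0.0446) and 0.14 with edgeR on library totals without TMM (adjusted p = 0.00549).

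Pcmtd1, at the 63.6th percentile of CPM per kb of exon, was at 49.7, 63.5, 64.0 and 60.9 CPM in wild type and 65.7, 59.9, 59.2 and 61.9 CPM in Btbd7 KO. The clones gave 58.9, 62.3, 60.2 and 66.5 CPM (clone 1), 51.7, 63.8, 64.6 and 63.7 CPM (clone 2), and 63.85, 71.7, 67.3 and 69.1 CPM (clone 3). Of the 12 knockout libraries, 7 were within the wild-type range and 5 above it, and the groups overlapped. The log2 difference from wild type was 0.10 (SE 0.07, 95% interval -0.04 to 0.24, edgeR adjusted p = 0.286).

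Clone 3 gave the highest Pcmtd1 gene values, 68.0 ± 3.29 CPM against 59.5 ± 6.69 CPM in wild type, a difference of 0.19 that was not called (edgeR adjusted p = 0.0869). It was called with DESeq2 (0.22, adjusted p = 0.0438) and with edgeR without TMM (0.27, adjusted p = 0.0183), and clone 3 had the lowest mean of the clones in the PROMPT row. The PROMPT means of the clones, 2.20 to 2.93 CPM, are below their gene SDs of 3.29 to 6.19 CPM. Their order cannot show whether the gene row gained as many counts as its PROMPT. On a fold scale the gene row did not match the PROMPT rise from wild type. The mean of the 3 clones differed by 4.44 in the PROMPT row, beside a 95% interval of -0.04 to 0.24 in the gene row. Clones 1 and 2 differed from wild type by 0.06 and 0.04, and Btbd7 KO by 0.05 (edgeR adjusted p = 0.635, 0.754 and 0.73). Against Btbd7 KO the clones differed by 0.04 (95% interval -0.10 to 0.18, edgeR adjusted p = 0.654), and they were not called different from one another (edgeR adjusted p = 0.325).

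**Figure D2:**
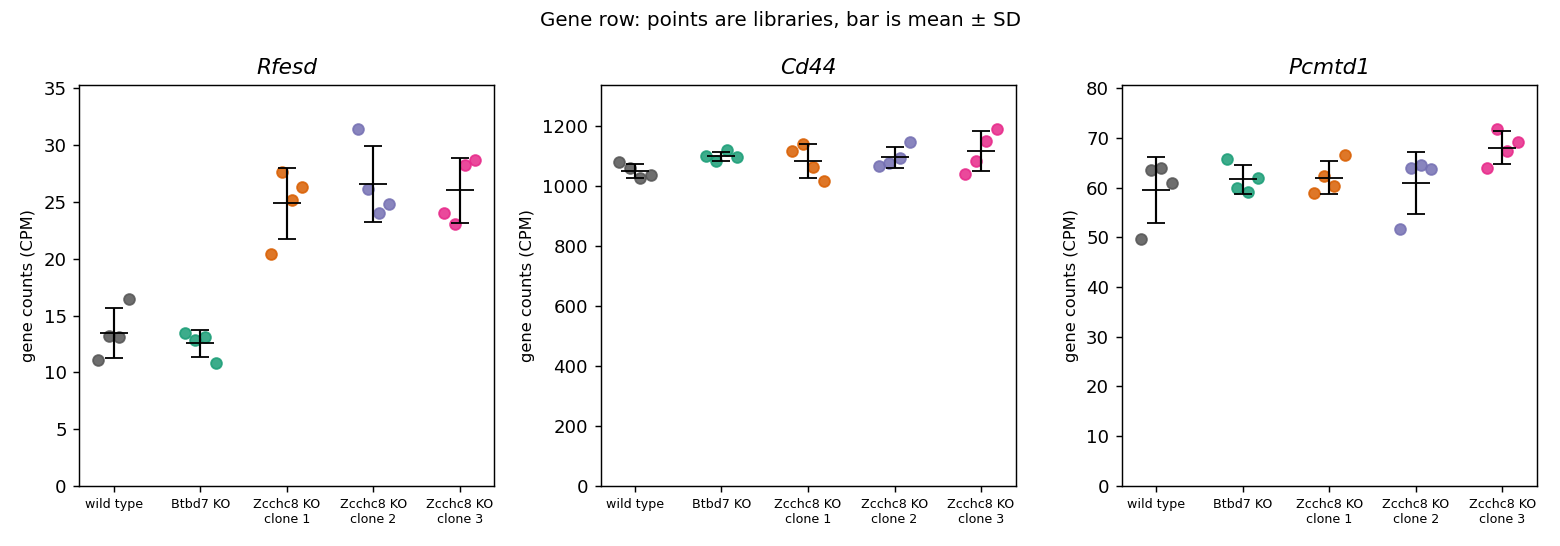
Gene CPM (vertical axes, starting at 0 and scaled per gene) of Rfesd, Cd44 and Pcmtd1 in 4 libraries per group. Points are libraries and bars are mean ± SD. The 12 Zcchc8 KO libraries of Rfesd (20.4 to 31.4 CPM) lie above the 8 control libraries (10.8 to 16.5 CPM). For Cd44 and Pcmtd1 the Zcchc8 KO libraries overlap the control libraries. For Cd44 all 4 Btbd7 KO libraries lie above wild type.

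The PROMPT count was a larger share of the gene count of the same library for Rfesd, the least abundant gene row of the 3, than for Pcmtd1 and Cd44. For Rfesd the PROMPT count was 37.5% ± 11.5 of the gene count over the 12 Zcchc8 KO libraries (lowest 24.4%, median 33.7%, highest 57.7%), against 1.16% ± 1.00 in wild type (n = 3) and 2.45% ± 3.20 in Btbd7 KO (SD, n = 4). For Cd44 it was 0.881% ± 0.369 over the 12 libraries (lowest 0.324%, highest 1.39%) and 0.0132% ± 0.0229 in wild type. For Pcmtd1 it was 3.97% ± 0.960 (lowest 2.45%, highest 5.31%) and 0.178% ± 0.175 in wild type. The Rfesd PROMPT rose by 9.395 CPM above wild type beside a gene row of 25.8 CPM in Zcchc8 KO, and the Cd44 PROMPT by 9.50 CPM beside a gene row of 1098 CPM.

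**Figure D3:**
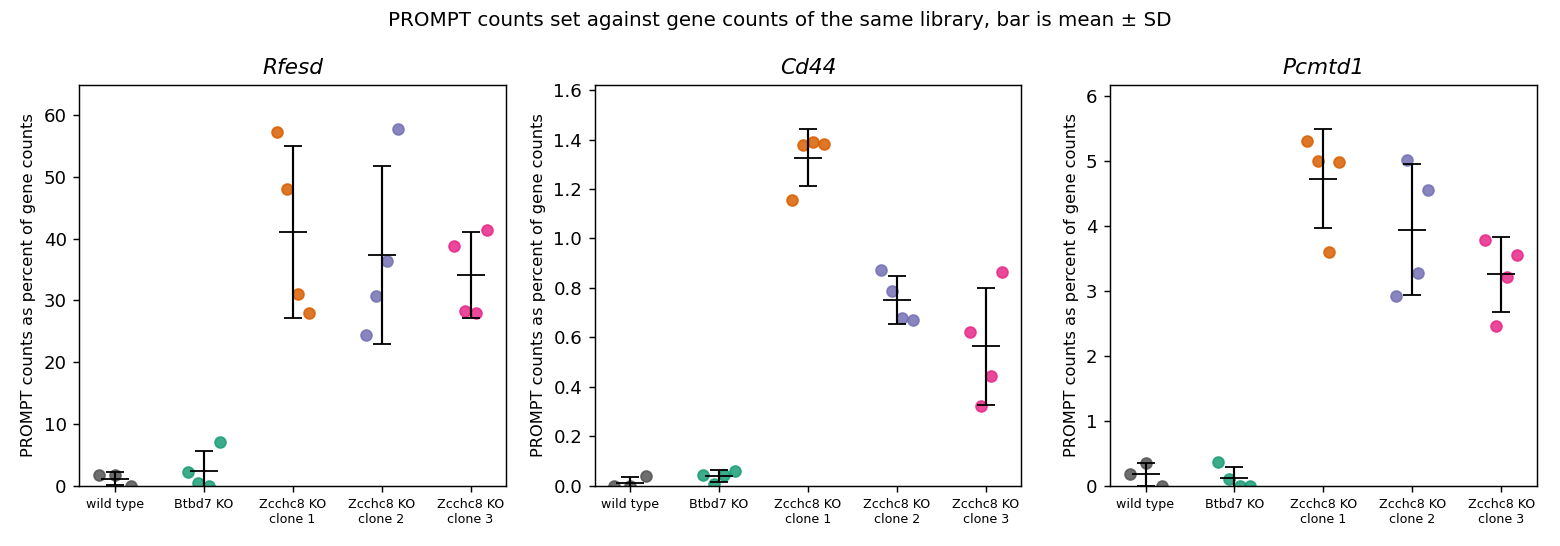
PROMPT counts as a percent of the gene counts of the same library (vertical axes, starting at 0 and scaled per gene) for Rfesd, Cd44 and Pcmtd1. Points are libraries (3 in wild type, 4 in each other group) and bars are mean ± SD. Rfesd reaches 57.7%, Pcmtd1 5.31% and Cd44 1.39%.

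Rfesd had the second-highest gene difference among the 50 regions that ranked highest by PROMPT rise under the same rule, a description since those regions were picked on these libraries. Of 48 whose gene row was tested, 5 were called higher (10.4%), 13 lower (27.1%) and 30 were not called, with a median log2 difference of -0.03, beside 16.2% higher, 19.9% lower and a median of -0.01 over all genes. The 5 were Gm37352 (0.96), Rfesd (0.93), Spaca6 (0.62), B4galt3 (0.19) and Zswim4 (0.13), and Cd44 ranked 16th. The split moved with the scaling, to 13 higher and 7 lower without TMM and to 9 and 10 with DESeq2. With PROMPT counts taken off it was 1 (Gm37352) and 31. These regions were picked for a PROMPT rise, so taking those counts off lowers their gene differences by construction. That split is no result about the genes. The fit with cell lines as replicates gave 3 (Gm37352, Rfesd and Spaca6) and 0 of 49 tested by edgeR (3 and 4 at an unadjusted p under 0.05). Leaving out single libraries gave 4 to 10 higher and 10 to 13 lower. B4galt3 was not called without wild-type replicate 1, 3 or 4, clone 1 replicate 2 or 3, clone 2 replicate 2, 3 or 4, or clone 3 replicate 1 or 3 (edgeR adjusted p = 0.0508 to 0.09), nor was Zswim4 without wild-type replicate 2 or 3 or clone 3 replicate 4 (0.0539 to 0.0561).

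A large PROMPT share did not go with a called gene rise at every region. Taken over summed Zcchc8 KO counts, Rfesd had the ninth-largest share of the 48 (38.0%) and Cd44 the second-smallest (0.829%), around a median of 11.98%. Lyrm7, an assembly factor of the mitochondrial Rieske protein, had a PROMPT of 266.9% of its gene counts and a gene row that fell by 0.78 (edgeR adjusted p = 0.00203). That fall was called in clone 1 (-1.51) and not in clones 2 and 3 (-0.25 and -0.60, edgeR adjusted p = 0.46 and 0.0641), nor with cell lines as replicates (-0.734, edgeR adjusted p = 0.269). The heat shock gene Hspa1b had 405% and a gene difference of -0.23 that was not called (edgeR adjusted p = 0.142). Lyrm7 and Hspa1b were picked after their values were seen. The regions ranked 3 to 8 were those of Ubqln2, Pgam1, mmu-mir-3084-1 (gene not tested), Sde2, Tbc1d15 and Mrpl45, with gene differences of 0.07, -0.01, -0.06, -0.13 and 0.15 for the 5 tested, none called.

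**Figure D4:**
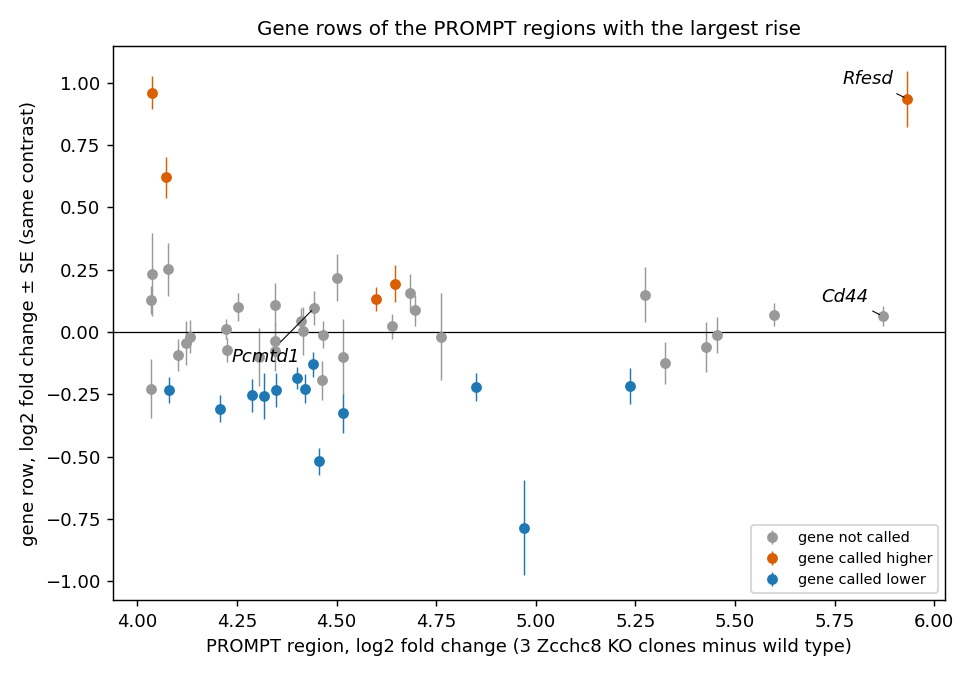
Log2 fold change of the gene row (vertical axis, ± SE) against that of the PROMPT region (horizontal axis) for the mean of 3 Zcchc8 KO clones minus wild type, for the 48 tested genes of the 50 leading regions plus Pcmtd1. Orange points were called higher, blue lower and grey not called. Rfesd and Cd44 lie at the right with PROMPT values of 5.93 and 5.87 and gene values of 0.93 and 0.06.

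No tested neighbour of Rfesd was called higher. Of 9 other annotated genes within 100 kb of its start, 4 were tested. Ttc37, a subunit of the cytoplasmic SKI complex that works with the exosome, fell by 0.43 (SE 0.05, edgeR adjusted p = 5.08e-07), from 114.5 ± 2.44 CPM in wild type to 78.6 ± 5.51, 95.8 ± 4.38 and 81.2 ± 5.34 CPM in clones 1 to 3, with 115 ± 7.89 CPM in Btbd7 KO. Rhobtb3 fell by 0.20 (edgeR adjusted p = 0.00175), with 227 ± 17.8 CPM in wild type, 200.1 ± 6.93 and 170.4 ± 11.4 CPM in clones 1 and 2, and 224.6 ± 3.805 CPM in clone 3, where it was not called (-0.02, edgeR adjusted p = 0.88). Neither Ttc37 (-0.461) nor Rhobtb3 (-0.246) was called with cell lines as replicates (edgeR adjusted p = 0.0759 and 0.303). Arsk (-0.04, 95% interval -0.33 to 0.25) and the low-count Spata9 (0.25, 95% interval -1.32 to 1.82) were not called (edgeR adjusted p = 0.859 and 0.834).

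The nearest annotated gene upstream of Rfesd was the pseudogene Gm4165, 1088 bases away on the same strand, with 2 gene counts over all libraries. Cd44 had no tested neighbour within 100 kb. The 1 tested neighbour of Pcmtd1, Gm38372, lies inside its span on the same strand, so its reads may be shared with Pcmtd1. Gm38372 was higher in Zcchc8 KO by 0.36 (edgeR adjusted p = 0.0258) and in Btbd7 KO by 0.62 (edgeR adjusted p = 0.00412). Its Zcchc8 KO call against wild type was lost with PROMPT counts taken off (0.479, edgeR adjusted p = 0.095), and without wild-type replicate 1 (0.29, edgeR adjusted p = 0.0598) or replicate 2 (0.35, edgeR adjusted p = 0.0539). With cell lines as replicates, where Btbd7 KO is also a control, the difference was -0.007 (edgeR adjusted p = 0.988).

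Other genes of each member's pathway were called in both directions, in a comparison that called 16.2% of all genes higher and 19.9% lower with a median of -0.01. With libraries summed per cell line, and Btbd7 KO counted as a control beside wild type, most of these calls were lost. Among hyaluronan enzymes and CD44 partners, 20 of 27 were tested, 1 rose, 9 fell and 10 were not called, with a median of -0.13 (without TMM, 2 rose and 6 fell, median -0.055). Of 23 tested with cell lines as replicates, edgeR called 0 higher and 1 lower (2 and 6 at an unadjusted p under 0.05). The CD44 ligand osteopontin (Spp1) fell by 0.93, the receptor tyrosine kinase Met by 0.64 and the hyaluronan receptor Hmmr by 0.33, and the hyaluronidase Hyal1 rose by 0.57 (edgeR adjusted p = 3.67e-11, 2.26e-10, 1.57e-05 and 0.00303). Met was still called in that fit (-0.598, edgeR adjusted p = 0.014), and Spp1 (-0.445), Hmmr (-0.385) and Hyal1 (0.705) were not (edgeR adjusted p = 0.75, 0.0602 and 0.107). Spp1 was called higher in clone 2 (0.37, edgeR adjusted p = 0.000687) and lower in clones 1 and 3 (-2.64 and -0.52). Hyal1 was not called in clone 2 (0.31, edgeR adjusted p = 0.1748). Of the PROMPT regions of this list, 13 of 19 tested were called higher, beside 39.2% of all tested PROMPT regions. In the list of Pcmt1 and elongin-cullin genes it was 1 of 4. Among Rieske and iron-sulfur genes 7 of 17 were called higher and 1 lower.

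Among Pcmt1, Pcmtd2 and the elongin and cullin partners, 1 of 6 rose, 3 fell and 2 were not called, with a median of -0.14 (2 and 2 without TMM), beside the same 16.2% and 19.9% of all genes. Pcmt1 rose by 0.16, and Eloc, Elob and Cul5 fell by 0.27, 0.26 and 0.20 (edgeR adjusted p = 0.0202, 0.000387, 0.00427 and 0.00156). With cell lines as replicates edgeR called 0 of the 6 (3 lower at an unadjusted p under 0.05), and adjusted p for these 4 was 0.771, 0.215, 0.145 and 0.193. The Pcmt1 call was also lost with no filter on low counts (adjusted p = 0.0549) and with PROMPT counts taken off (adjusted p = 0.114), and that of Cul5 without TMM (adjusted p = 0.0544). Clone by clone, Pcmt1 was not called in clone 2 (0.098, edgeR adjusted p = 0.2507), nor Elob in clone 3 (-0.1786, edgeR adjusted p = 0.1218).

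Among Rieske proteins and iron-sulfur assembly factors, 19 of 21 were tested, 3 rose, 2 fell and 14 were not called, with a median of -0.10, so the share called higher was near that of all genes (16.2%). The assembly factors Bola1, Iba57 and Isca2 rose by 1.76, 1.00 and 0.64 (edgeR adjusted p = 0.00352, 0.00464 and 0.00326), and Isca2 differed by 0.74 in Btbd7 KO as well. Bola1 and Iba57 were low in wild type (1.33 ± 1.56 and 2.44 ± 1.21 CPM, SD). With 1 library left out Bola1 ran from 1.362 to 2.987. Iba57 was called in clone 1 (1.51) and not in clones 2 and 3 (0.73 and 0.76, edgeR adjusted p = 0.0798 and 0.0739). Nfu1 and the chaperone Hspa9 fell by 0.30 each (edgeR adjusted p = 0.0189 and 0.00113), and without wild-type replicate 2 Nfu1 was not called (-0.145, adjusted p = 0.247). Nfu1 was called in clone 1 (-0.46) and not in clones 2 and 3 (-0.16 and -0.29, edgeR adjusted p = 0.3525 and 0.0817). Bola1 alone of the 19 was called with cell lines as replicates (1.597, edgeR adjusted p = 0.00994), and Iba57 (0.77), Isca2 (0.232), Nfu1 (-0.303) and Hspa9 (-0.364) were not (edgeR adjusted p = 0.211, 0.594, 0.272 and 0.058). Btbd7 KO, in which Isca2 was also higher, is a control in that fit. With PROMPT counts taken off, Iba57 was -0.54 and Bola1 0.72, neither called (edgeR adjusted p = 0.558 and 0.354).

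The genes whose log2(CPM + 0.5) was most like that of Rfesd over the 20 libraries, among 10777 tested genes with a mean of at least 50 counts, were 2810402E24Rik (Pearson r = 0.967), Gm26583 (0.963) and 1700001G17Rik (0.955). All 3 are annotated as non-coding or unconfirmed loci and were called higher in Zcchc8 KO, 2810402E24Rik going from 16.5 CPM in wild type to 44.5, 48.4 and 49.3 CPM in clones 1 to 3. For Cd44 the closest were A630072M18Rik (0.695), Gabarap (0.642) and Rbm4b (0.595). For Pcmtd1 they were Cnpy4 (0.834), Mpnd (0.830) and Pygo2 (0.813). These correlations describe libraries that share groups and depth.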

How the data were processed

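Stranded total RNA libraries of SIMS cells were aligned with STAR 2.7.3a after FastQC, per the submitters' processing notes. The authors deposited raw read counts, whole numbers per gene or PROMPT region and library, without normalization. How far a PROMPT region reaches, which counter, build and strand option were used, and how reads shared between rows were treated are not given in the sources used here. Gene symbols were matched for 55144 of 55471 identifiers (54487 with the version) to GENCODE M21.

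The test was the quasi-likelihood test of edgeR 4.0.16 under R 4.3.3 (1 glmQLFit and glmQLFTest fit over all 5 groups, filterByExpr by group, TMM on all genes), called at a Benjamini-Hochberg adjusted p under 0.05. PROMPT rows used the gene table's library sizes and TMM factors. The same fit ranked and counted PROMPT regions. Since it chose the members, no p is given for a member's PROMPT row. DESeq2 1.42.0 was an alternative. Where PROMPT counts were taken off, a gene count was not allowed to become negative. A pseudocount of 0.5 was added before log2 ratios. Depth ran from 6833258 to 17771804 gene counts per library, and intervals on summed counts cover counting error only.

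Members, lists and tests were chosen with earlier results of these data known. Genes were named by rule: the members, Zcchc8, Btbd7, up to 3 called genes per direction and list, tested genes within 100 kb of a member's start, the 3 genes most like each member, and PROMPT regions ranked 1 to 8. Tmem2 of the hyaluronan list was found under its present symbol Cemip2. Tables of other regulatory features were not used here.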

Additional observations from a re-analysis of the deposited data

Results flagged for a closer look

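In 39 groups of 4 libraries checked, 3 held 1 library whose gap to the next was larger than a Dixon test at the 95% level allows, where chance gives about 1 in 20. The Rfesd PROMPT was at 14.3 CPM in clone 2 replicate 4, beside 7.675 to 8.73 CPM in the other 3 libraries of that clone. The log2 ratio of Cd44 PROMPT to gene counts was -6.43 in clone 1 replicate 1, beside -6.175 to -6.16 in the others. The Pcmtd1 gene row was at 51.7 CPM in clone 2 replicate 1, beside 63.7 to 64.6 CPM in the others.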

How the results depend on the processing

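The call of the Rfesd gene row held in 30 of 31 alternatives against wild type (0.870 to 1.068 with 1 library left out). Most of the 31 leave out 1 library, and the fit of the 19 shared libraries repeats the one without wild-type replicate 1. They are therefore not separate checks. The exception among the 31 was taking PROMPT counts off, chosen after seeing the data, which lowers by construction a gene picked for its PROMPT rise. It gave 0.196, with clones at 0.073, 0.240 and 0.273, and 0.397 against Btbd7 KO. That alternative gave Pcmtd1 -0.036, with clones 1 and 2 at -0.086 and -0.091, Btbd7 KO at -0.023, and -0.013 against Btbd7 KO. Cd44 was called with DESeq2 (0.095) and without TMM (0.142, clones 2 and 3 at 0.147 and 0.163), and Pcmtd1 in clone 3 with DESeq2 (0.216), without TMM (0.267) and with RLE factors (0.217, chosen after seeing the data). Differences near 0 changed sign. Cd44 against Btbd7 KO was 0.040 with DESeq2 and with RLE factors, 0.072 without TMM, 0.007 with only the groups compared, 0.010 in the 19 shared libraries and 0.017 with TMM on filtered genes (chosen after seeing the data), and -0.012 to 0.017 with 1 library left out. Pcmtd1 in the 19 libraries was -0.007 in clone 2 and -0.015 in Btbd7 KO. With 1 library left out these ran from -0.007 to 0.117 and from -0.015 to 0.089, and Rfesd in Btbd7 KO from -0.176 to 0.020.

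PROMPT values scaled within the PROMPT table were 4.082 for Pcmtd1 (clones 4.233, 4.103 and 3.910), 5.565 for Rfesd in clone 1 and 6.088 for Cd44 in clone 1. With 1 library left out they ran, in the mean and clones 1 to 3, for Rfesd from 5.332 to 6.452, 5.396 to 6.517, 5.355 to 6.476 and 5.245 to 6.365. For Cd44 they ran from 5.264 to 9.740, 5.910 to 10.386, 5.097 to 9.573 and 4.783 to 9.261. The upper ends are without wild-type replicate 4, which leaves wild type at 0 and gives no bound. For Pcmtd1 they ran from 3.858 to 5.206, 4.074 to 5.422, 3.827 to 5.174 and 3.673 to 5.021. In Btbd7 KO they ran from 0.024 to 1.457, 0.818 to 5.294 and -1.580 to 0.616 for Rfesd, Cd44 and Pcmtd1. Among genes of the 20 and 100 leading regions, 15.8% and 18.1% were higher.

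Named genes that changed sign with PROMPT counts taken off were Iba57 (-0.544), Arsk (0.367), Ubqln2 (-0.105), Mrpl45 (-0.395), B4galt3 (-0.203), Zswim4 (-0.077) and Spaca6 (-0.543). With cell lines as replicates they were Spata9 (-0.088), Gm38372 (-0.007), Ubqln2 (-0.014) and Mrpl45 (-0.186). In the 19 libraries they were Spata9 (-0.127), Arsk (0.1), Sde2 (0.094) and Tbc1d15 (0.048), and without TMM Arsk (0.040), Pgam1 (0.066) and Sde2 (0.020). Pgam1 was also 0.023 with DESeq2, 0.022 with RLE factors, 0.008 with only the groups compared and 0.012 with TMM on filtered genes. With 1 library left out, Arsk ran from -0.123 to 0.1, Spata9 from -0.149 to 1.241, Pgam1 from -0.033 to 0.031, Sde2 from -0.175 to 0.094, Tbc1d15 from -0.214 to 0.048, and Btbd7 in Zcchc8 KO from -0.010 to 0.050.

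Cell lines as replicates gave 927 genes higher and 165 lower, against 2474 and 3046. Without TMM 2005 were lower, and with PROMPT counts taken off 1020 were higher. With only the groups compared, clones 1 to 3 gave 1489, 1367 and 1116 higher (2559, 2456 and 2144 in the fit of all groups) and 1663, 1384 and 1298 lower (2916, 2484 and 2345), and Btbd7 KO 596 and 641 (1183 and 1223). With PROMPT counts taken off, clones 1 to 3 gave 1333, 1196 and 979 higher, and 1757 were higher against Btbd7 KO (2881). Without TMM, 1620 and 1540 were lower in clones 2 and 3. The median of all genes was 0.128 with no filter and -0.130 with PROMPT counts taken off. The replicate block gave 0.938 for Rfesd, 0.063 for Cd44 and 0.099 for Pcmtd1 and changed none of these calls. Same-numbered libraries correlated at -0.087 to 0.152 (40 pairs), and 1 of 20 libraries correlated best with its own number, so the samples share only a number. Wild-type PROMPT rows of 0 to 7 counts limit every PROMPT ratio.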
